A study of Mus musculus with 6 samples.

Results

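The 34 genes described here are p53, its inhibitor and its best known targets, together with the BCL2 family, which decides whether a cell under stress lives or dies. They were chosen by name and not by a rule on their measured values, though earlier results of these data were known when they were listed. They stand among 18193 genes measured in mouse bone marrow stem and progenitor cells with and without Raptor. Of the 34, 32 were measured, and Trp53 and Bax are not analysed here. Each gene is represented by 1 probe set, a group of probes on the array that name that gene alone, and the brightest one, by its mean across the 6 arrays, stands for a gene that has several.

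All mice were on a C57BL/6 background and carried loxP sites around exon 6 on both Raptor alleles (gene Rptor). Mice of the Raptor mutant group (3 arrays) also carried the MxCre transgene, in which an interferon-inducible promoter drives the recombinase Cre, and those of the wild type group (3 arrays) did not. Both groups had been given pIpC, a double-stranded RNA analogue that induces interferon, as 3 injections of 15 µg per g within 5 days. Flt3-negative, lineage-negative, Sca1-positive and cKit-positive cells were sorted 5 weeks later, so controls shared the floxed alleles and the interferon stimulus but not Cre. The promoter is active in many cell types besides blood stem cells, and the labels do not say whether an array stands for 1 mouse or a pool, nor give sex or age. P-values therefore reflect only how much these arrays vary, and some of that variation may be technical.

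The transcription factor p53 is kept low by the ubiquitin ligase MDM2 and is stabilised by DNA damage and other stress, when it activates genes of cell cycle arrest, repair, metabolism and apoptosis. In the BCL2 family, survival proteins such as BCL2 and MCL1 restrain the pore-forming effectors BAX and BAK, and BH3-only proteins such as BIM, PUMA and NOXA counteract the survival proteins. Blood stem cells need MCL1 to survive, and p53 helps to keep them quiescent. Raptor is the defining subunit of mTORC1, a kinase complex that promotes growth and protein synthesis. RNA levels do not report p53 protein, its activity, or the binding between BCL2 family proteins.

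The arrays had a lower quartile of 5.15 to 5.37 and a median of 6.85 to 6.94 on the log2 scale, the scale of every level below. The brightest Rptor probe set stood at 8.57, 8.17 and 7.59 in wild type and at 8.68, 7.99 and 8.33 in mutant arrays, and since its place relative to exon 6 is not known here it does not check the deletion. The gate marker Kit stood between 10.7 and 11.2 on all arrays, and the progenitor gene Gata2 between 12.01 and 12.33. The Y-linked genes Kdm5d and Eif2s3y had signal on wild type arrays 2 and 3, at 9.53 to 10.8. On the other 4 arrays they had none, at 3.60 to 4.53. The X-linked gene Xist went the other way, at 8.05 and 5.69 on wild type arrays 2 and 3. It stood at 13.46 on wild type array 1 and at 13.37 to 13.4 on the mutant arrays. Wild type arrays 2 and 3 therefore stand apart from the rest. Sex, which the labels do not give, cannot be told apart from genotype where they are set against the mutant arrays. Members whose values are given array by array are also given without wild type arrays 2 and 3, which sets the 3 mutant arrays against wild type array 1 alone.

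No member was called changed. The lowest adjusted p among the 32 was 0.138, for Btg2 (limma, Benjamini-Hochberg adjustment over all genes), where 20 of all genes (0.110%) were called, 0.0550% in each direction. At an unadjusted p under 0.05 there were 7 members (21.9%) against a background of 10% of all genes. Of these, 4 were lower in mutant arrays (Btg2, Plk2, Trp53inp1, Mdm2; background 4.24%) and 3 were higher (Perp, Pmaip1, Cdkn1a; background 5.81%). The groups did not overlap in 8 members (25%; background 16.1%), 6 of them lower in the mutants (background 7.98%) and 2 higher (background 8.08%). Both shares lay above their background, and no test of that difference was made, since the members were listed with earlier results of these data known.

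In size, 25 of the 32 members differed by less than 0.5 between the group means (log2), and 5 by more than 1. The members' median log2 fold change was -0.18, beside -0.07 for all genes, and 21 members (65.6%) lay below 0 where 59.6% of all genes did. The targets that are classic reporters of p53 did not move as one. By the brightest probe set, Cdkn1a and Pmaip1 were higher and Mdm2, Btg2, Plk2 and Bbc3 lower, none of them called. Ccng1, Zmat3, Phlda3, Polk and Tigar differed by less than 0.2. Other probe sets of Mdm2 (-0.08 and 0.43) and Cdkn1a (-0.03) did not share the difference of the brightest one.

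**Figure D1:**
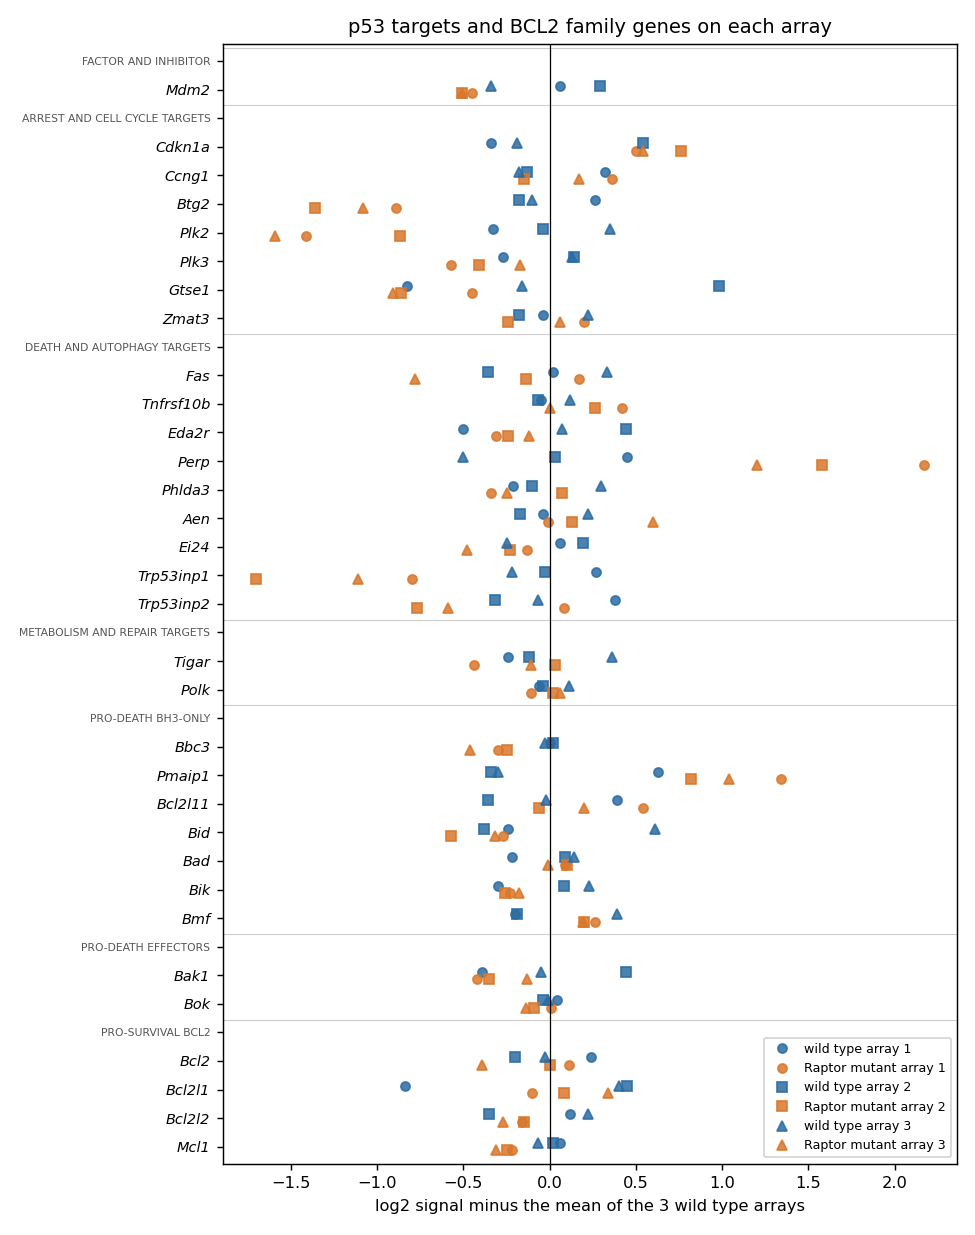
Log2 signal of the 32 measured members on each array, minus the mean of the 3 wild type arrays, with blue symbols for wild type and orange for Raptor mutant arrays and a symbol shape for each array number. Most members overlap around 0, while Perp and Pmaip1 lie to the right and Btg2, Plk2 and Trp53inp1 to the left on all 3 mutant arrays.

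Mdm2 encodes the ligase that marks p53 for destruction and is itself a p53 target. Its level was 10.92, 11.15 and 10.52 on wild type arrays 1, 2 and 3 and 10.41, 10.35 and 10.35 on the mutant arrays. The mutant values lay close together just under the lowest wild type value, and the log2 fold change was -0.49 ± 0.19 (SE, adjusted p = 0.463, limma). The 2 dimmer Mdm2 probe sets did not share this difference, with log2 fold changes of -0.08 and 0.43, and the mean over the 3 probe sets gave -0.05. Against wild type array 1 alone the brightest one gave -0.55.

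Cdkn1a encodes p21, the kinase inhibitor through which p53 arrests the cell cycle. It stood at 7.84, 8.72 and 7.99 in wild type and at 8.68, 8.94 and 8.72 in mutant arrays, so that wild type array 2 reached the mutant range. The log2 fold change was 0.60 ± 0.25 (SE, adjusted p = 0.483, limma), with a 95% interval of 0.02 to 1.17. A second Cdkn1a probe set of nearly the same mean signal (8.46 against 8.48) had a log2 fold change of -0.03 ± 0.48. Against wild type array 1 alone the brighter one gave 0.94, and the mean of both over all arrays gave 0.28.

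Btg2 is an antiproliferative gene that p53 activates and that also responds within minutes to growth factors. Its level was 9.65, 9.21 and 9.29 in wild type and 8.50, 8.03 and 8.31 in mutant arrays. The groups were separated by more than the spread within either, and the log2 fold change was -1.10 ± 0.20 (SE, adjusted p = 0.138, limma). Its second probe set gave -1.34 ± 0.41, in the same direction, and against wild type array 1 alone the value was -1.37.

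The polo-like kinases Plk2 and Plk3 are stress-responsive p53 targets that are also induced by serum. Plk2 stood at 6.31, 6.60 and 6.99 in wild type and at 5.23, 5.77 and 5.05 in mutant arrays, where 2 of the 3 values lay within or under the range of the array lower quartiles. Its log2 fold change was -1.29 ± 0.25 (SE, adjusted p = 0.157, limma), and it was -0.96 against wild type array 1 alone. A far dimmer Plk2 probe set, with a mean of 3.39, gave -0.12. Plk3 lay at 5.77 to 6.18 in wild type and at 5.47 to 5.87 in mutant arrays, overlapping, with a log2 fold change of -0.38 ± 0.19 (SE).

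**Figure D2:**
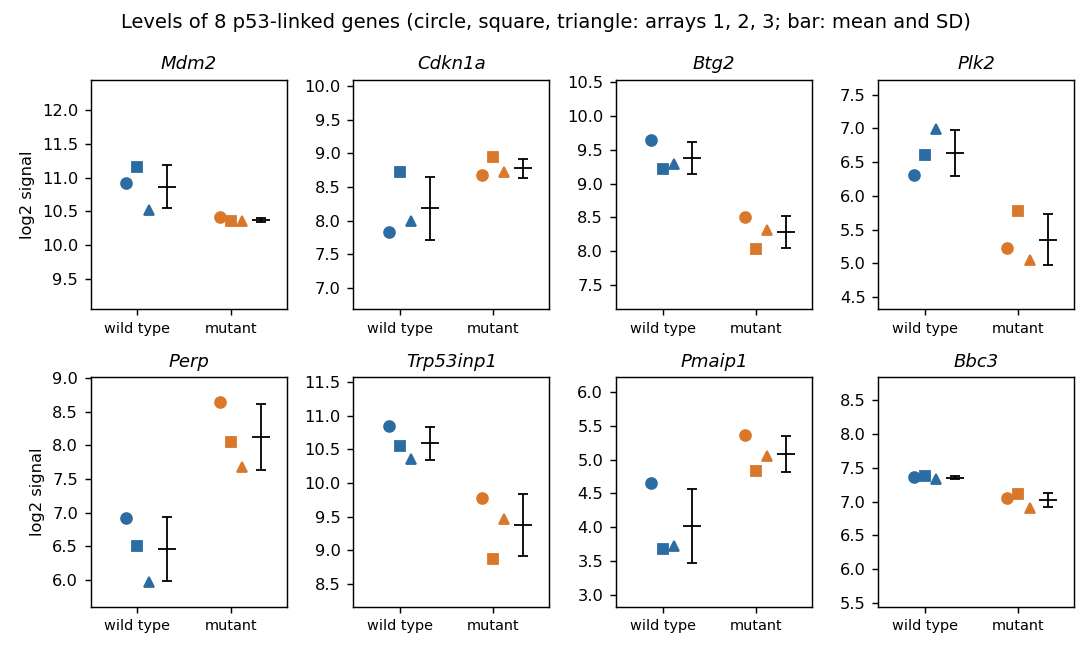
Log2 signal of 8 p53-linked genes on the 3 wild type (blue) and 3 Raptor mutant (orange) arrays, every panel spanning the same number of log2 units, with black bars for the group mean and SD. The groups are apart in Mdm2, Btg2, Plk2, Perp, Trp53inp1, Pmaip1 and Bbc3 and overlap in Cdkn1a.

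The other arrest targets showed no separation. Ccng1, cyclin G1, lay at 11.16 to 11.66 in wild type and 11.19 to 11.70 in mutant arrays (log2 fold change 0.12, 95% interval -0.36 to 0.61). Zmat3, an RNA-binding zinc finger gene, had the same mean of 7.11 in both groups (interval -0.44 to 0.44). Gtse1, a microtubule-binding protein that restrains p53 in G2, was at 7.22, 9.03 and 7.89 in wild type and at 7.60, 7.19 and 7.14 in mutant arrays. Its wild type spread was the widest of all members (SD 0.91), and its log2 fold change of -0.74 ± 0.42 (SE) became 0.09 against wild type array 1 alone.

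Promoters were searched for the p53 element because a member's promoter sequence is independent of its level here. Many members were listed as p53 targets, so a share above that of all promoters may come from that choice alone. The element consists of 2 copies of the 10-base p53 decamer, directly adjacent, and the search covered both strands from 250 bases before to 50 bases after each annotated start (RefSeq, GRCm38.p6). An exact element was in 0 of 40 promoters of 28 members and in 3 of 32851 promoters of all genes. The 28 are Trp53, Bax and 26 of the 32 measured members. Promoters of Perp, Trp53inp1, Pmaip1, Zmat3, Tnfrsf10b and Bik were not available, so these genes were searched for no motif given here. With 1 base off the consensus allowed, 3 member promoters (7.5%) and 0.0883% of all promoters held one. These are the 3 windows, shown since they are the closest matches among the members searched, with the element in capitals, on the gene's own strand.
Ccng1 (chr11:40755452-40755511, minus strand, element from -195 to -176): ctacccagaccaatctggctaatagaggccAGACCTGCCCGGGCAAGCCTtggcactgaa
Cdkn1a (chr17:29090898-29090957, plus strand, element from -51 to -32 of an upstream start): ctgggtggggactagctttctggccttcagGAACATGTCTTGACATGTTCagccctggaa
Gtse1 (chr15:85859915-85859974, plus strand, element from -1 to 19 of the downstream start): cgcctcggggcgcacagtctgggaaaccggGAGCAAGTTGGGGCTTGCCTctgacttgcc

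A match is a description of letters and not a measured binding site. The 3 genes with a near-exact element had log2 fold changes of 0.12 (Ccng1), 0.60 (Cdkn1a) and -0.74 (Gtse1), with no common direction. A single exact decamer was in 27.5% of member promoters and 8.36% of all promoters. The promoters of Btg2 and Plk2 held no decamer within this window.

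After the values were seen, 7 more motifs were searched in the same windows on both strands. They were the CArG box, the cAMP response element TGACGTCA, its core TGACG, the AP-1 site TGACTCA, the forkhead site GTAAACA, the E-box CACGTG and the CLEAR element of lysosomal genes. TGACGTCA was in the promoters of Btg2, Plk2 and Trp53inp2, 3 of the 40 (7.5%), and in 1.79% of all promoters. That core was in 27.5% of member and 20.8% of all promoters, GTAAACA in 10% and 3.65%, CACGTG in 15% and 7.15%, TGACTCA in 2.5% and 5.2%, and the CArG box in 2.5% and 1.63%. The CLEAR element was in 0 member promoters and 0.326% of all. The windows around TGACGTCA are shown because Btg2 and Plk2 had the largest differences among the arrest genes, with the motif in capitals.
Btg2 (chr1:134079288-134079347, minus strand, motif from -166 to -159): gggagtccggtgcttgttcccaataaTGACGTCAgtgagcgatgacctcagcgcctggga
Plk2 (chr13:110394956-110395015, plus strand, motif from -62 to -55): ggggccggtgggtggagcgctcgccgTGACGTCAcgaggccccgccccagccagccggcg
Trp53inp2 (chr2:155381789-155381848, plus strand, motif from -41 to -34): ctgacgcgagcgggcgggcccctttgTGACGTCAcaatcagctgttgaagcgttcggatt

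Among the death targets, Perp had the largest difference of any member. It encodes a tetraspan membrane protein of desmosomes that also acts in p53-dependent apoptosis. Perp stood at 6.92, 6.5 and 5.97 in wild type and at 8.64, 8.05 and 7.67 in mutant arrays, so the lowest mutant value lay above the highest wild type value. The log2 fold change was 1.65 ± 0.32 (SE), or 3.14-fold (adjusted p = 0.147, limma), and it was 1.20 against wild type array 1 alone. Perp has a single probe set here.

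Trp53inp1, a stress-induced nuclear protein that promotes p53 activity and autophagy, differed the other way. Its level was 10.85, 10.55 and 10.36 in wild type and 9.78, 8.88 and 9.47 in mutant arrays. The log2 fold change was -1.21 ± 0.26 (SE, adjusted p = 0.166, limma), and the second probe set gave -1.25 ± 0.26. Against wild type array 1 alone the value was -1.47. Its relative Trp53inp2, an autophagy and transcription cofactor, lay at 6.11 to 6.81 in wild type and 5.66 to 6.51 in mutant arrays, with a log2 fold change of -0.42 ± 0.28 (SE), and -0.81 against wild type array 1 alone.

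Death receptor genes overlapped between the groups. Fas was dim, at 4.83 to 5.52 in wild type and 4.41 to 5.36 in mutant arrays. Tnfrsf10b, the mouse TRAIL receptor, lay at 6.99 to 7.18 and at 7.06 to 7.48 (log2 fold change 0.22, 95% interval -0.17 to 0.61). Eda2r, a receptor for the ligand ectodysplasin A2 encoded on the X chromosome, lay at 5.51 to 6.45 and at 5.70 to 5.89. Its log2 fold change of -0.22 turned to 0.28 against wild type array 1 alone.

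The remaining targets differed by less than 0.3 on the log2 scale, with overlapping groups. They were Phlda3, which blocks AKT at the membrane (-0.17), Aen, an apoptotic nuclease (0.24), and Ei24, an endoplasmic reticulum protein of autophagy (-0.28). Tigar, which lowers glycolytic flux, had a log2 fold change of -0.17, and the DNA repair polymerase gene Polk one of -0.01 (95% interval -0.36 to 0.33). Other probe sets of these genes had log2 fold changes of their own of -0.59 ± 0.24 (SE) for Polk and of 0.99 ± 0.60 and -0.37 ± 0.44 for Tigar. The 3 dimmer ones of Aen gave -0.53, -0.06 and 0.20.

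Of the 9 pro-death BCL2 members measured, 0 were called, 4 had log2 fold changes above 0 and 5 below, and their median was -0.07, equal to that of all genes. The 2 BH3-only genes that p53 activates most directly differed in opposite directions. Pmaip1, which encodes NOXA, stood at 4.65, 3.68 and 3.72 in wild type and at 5.36, 4.84 and 5.06 in mutant arrays. The log2 fold change was 1.07 ± 0.29 (SE, adjusted p = 0.272, limma), but all 3 wild type and 2 of the 3 mutant values lay under the array lower quartile, and wild type array 1 was closest to the mutants. Against that array alone the value was 0.43, and without it 1.39. No detection calls were used here, so a fold of a gene this dim is not exact.

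Bbc3, which encodes PUMA, stood at 7.36, 7.38 and 7.33 in wild type and at 7.06, 7.11 and 6.90 in mutant arrays. Its wild type values were almost identical and all mutant values lay under them, with a log2 fold change of -0.33 ± 0.15 (SE, adjusted p = 0.508, limma). Against wild type array 1 alone it was -0.34.

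Bcl2l11 encodes BIM, a BH3-only protein that is induced when growth factors are withdrawn. It stood at 11.18, 10.43 and 10.77 in wild type and at 11.33, 10.73 and 10.99 in mutant arrays, with a log2 fold change of 0.23 (95% interval -0.34 to 0.79). A dimmer Bcl2l11 probe set gave 0.77 ± 0.24 (SE), and the other 3 gave -0.57 to 0.03. The value of the brightest one turned to -0.16 against wild type array 1 alone.

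Bid, which links death receptors to mitochondria, lay at 8.63 to 9.62 in wild type and 8.44 to 8.74 in mutant arrays (log2 fold change -0.38, 95% interval -1.01 to 0.25). Bad, which growth factor signalling inactivates, lay at 9.25 to 9.61 and at 9.46 to 9.57 (log2 fold change 0.06, interval -0.32 to 0.44). Bmf, a BH3-only protein released from the cytoskeleton, lay at 8.72 to 9.31 and at 9.11 to 9.18 (log2 fold change 0.22). Bik, a BH3-only protein of the endoplasmic reticulum, lay at 6.29 to 6.82 and at 6.33 to 6.41 (log2 fold change -0.23). In these 4 genes the groups overlapped, and the mutant arrays lay closer together than the wild type arrays.

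Among the pore-forming effectors, Bak1 stood at 10.34, 11.17 and 10.68 in wild type and at 10.31, 10.38 and 10.60 in mutant arrays. Between the group means the log2 fold change was -0.30 (95% interval -0.83 to 0.24), while a second probe set, bright as well, gave 0.41 ± 0.17 (SE). Against wild type array 1 alone the first gave 0.09, so the direction of Bak1 is not settled by these arrays. Bok lay at 7.44 to 7.52 and at 7.34 to 7.49, a log2 fold change of -0.07 (interval -0.40 to 0.26).

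Of the 4 pro-survival members 0 were called, 3 had log2 fold changes below 0, and their median was -0.14. Mcl1, on which blood stem cells depend, stood at 12.49, 12.45 and 12.36 in wild type and at 12.21, 12.18 and 12.12 in mutant arrays. The difference was small but the groups did not overlap, with a log2 fold change of -0.26 ± 0.14 (SE, adjusted p = 0.579, limma). All 6 Mcl1 probe sets lay below 0, from -0.40 to -0.22, and it was -0.32 against wild type array 1 alone.

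Bcl2, the founding survival gene, stood at 13.56, 13.12 and 13.29 in wild type and at 13.43, 13.32 and 12.93 in mutant arrays. The groups overlapped, with a log2 fold change of -0.09 (95% interval -0.56 to 0.37), and of -0.33 against wild type array 1 alone. Among its 4 dimmer probe sets, 2 lay near 0 (0.07 and -0.01), and the others gave 0.74 ± 0.23 and 0.50 ± 0.14 (SE).

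Bcl2l1, which encodes BCL-XL, stood at 8.02, 9.31 and 9.26 in wild type and at 8.76, 8.94 and 9.20 in mutant arrays. Wild type array 1 lay well under every other array, so the log2 fold change was 0.10 over all arrays (interval -0.71 to 0.91), 0.94 against wild type array 1 alone and -0.32 without it. Its other probe sets gave 0.82 ± 0.33, 0.08 ± 0.17 and -0.30 ± 0.19 (SE). Bcl2l2, which encodes BCL-W, lay at 8.90 to 9.47 in wild type and 8.98 to 9.10 in mutant arrays (log2 fold change -0.19, interval -0.63 to 0.25).

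**Figure D3:**
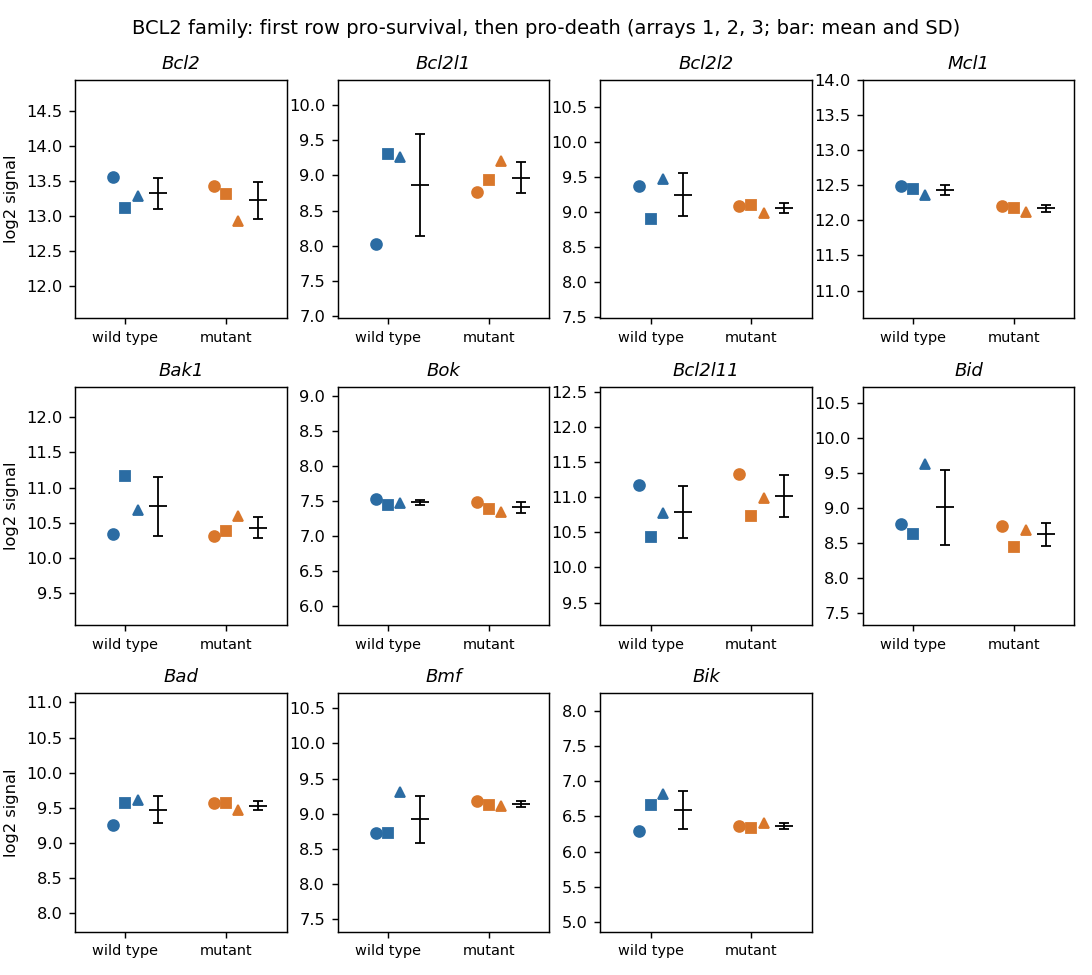
Log2 signal of 11 BCL2 family genes on the 3 wild type (blue) and 3 Raptor mutant (orange) arrays, pro-survival genes in the first row and pro-death genes in the others, with black bars for the group mean and SD. Mcl1 is the only one of these 11 in which the groups do not overlap, and Bcl2l1 shows wild type array 1 at 8.02, under all other arrays.

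Probe sets of the same gene often disagreed. The 32 members have 75 probe sets, of which 21 members have more than 1. In 13 of these 21 the probe sets gave log2 fold changes on both sides of 0, and in 8, including Btg2, Trp53inp1, Mcl1 and Plk2, on one side. When each probe set was tested separately, 16 of the 75 (21.3%) had an unadjusted p under 0.05, beside 9.39% of all probe sets, and 0 were called, beside 0.0343% of all probe sets. What distinguishes the probe sets, such as the transcript ends they read, was not analysed here.

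**Figure D4:**
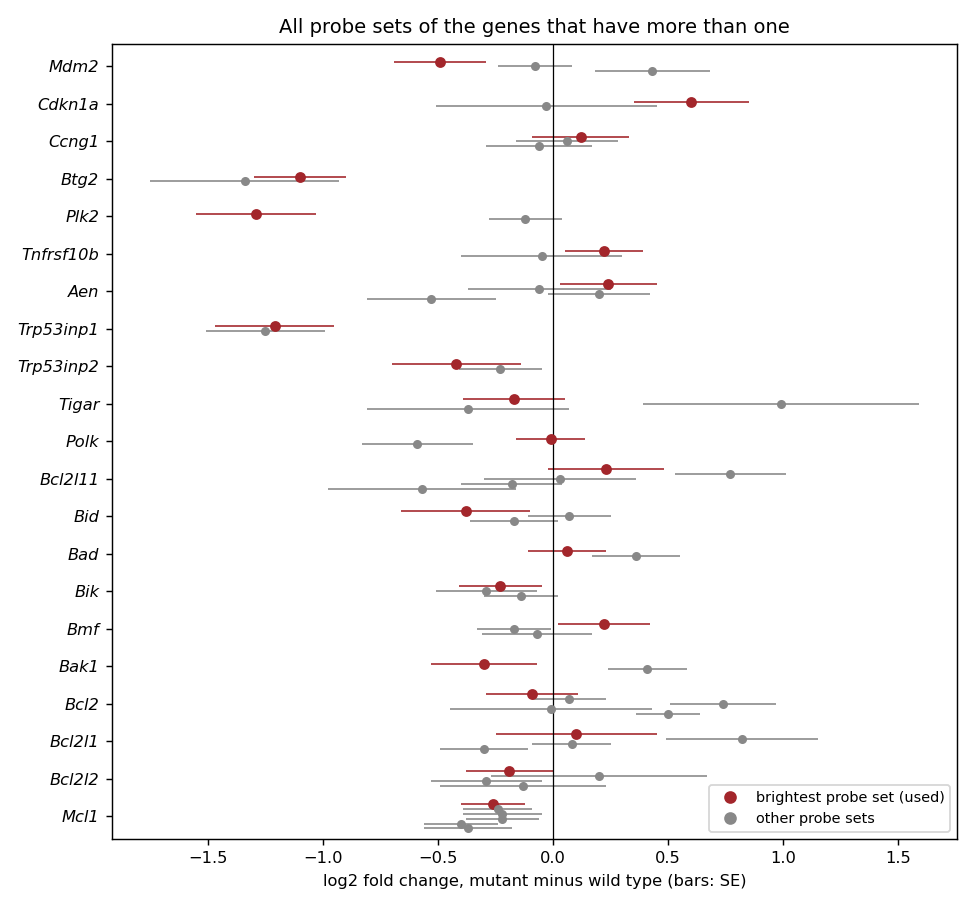
Log2 fold change (mutant minus wild type) with SE of every probe set of the 21 members that have more than 1, in red for the brightest and grey for the others. Those of Btg2, Trp53inp1 and Mcl1 lie on one side of 0, while those of Mdm2, Bak1, Bcl2 and Bcl2l11 lie on both.

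Other genes around p53 gave the same mixed picture. Of 17 p53 regulators 0 were called in either direction, with a median log2 fold change of 0.02, and 3 had an unadjusted p under 0.05 (background 10%). Of 21 further p53 targets 0 were called. At that p, 3 were lower (background 4.24%) and 1 was higher (background 5.81%). Their median was -0.07, equal to that of all genes, which became 0.06 without the lower 50% of genes. Mean levels of these 21 were 9.17 to 9.38 per array, beside 7.64 to 7.73 for all genes. The 3 lower ones were Ddit4, a stress-induced inhibitor of mTORC1, Sesn1, a sestrin that senses leucine for mTORC1, and the antiproliferative gene Tob1, a relative of Btg2. Ddit4 stood at 11.10, 10.69 and 10.46 in wild type and at 9.58, 8.67 and 9.54 in mutant arrays, a log2 fold change of -1.49 ± 0.29 (SE, adjusted p = 0.155, limma). Sesn1 stood at 10.60, 10.02 and 10.58 and at 9.60, 9.39 and 9.31 (log2 fold change -0.97). Tob1 stood at 7.86, 7.90 and 7.16 and at 6.84, 6.25 and 6.84 (log2 fold change -1.0). In each of these 3 genes, named for their low p, the groups did not overlap (background 7.98% lower in the mutants).

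Downstream of the BCL2 family, 0 of 17 caspases, adaptors and inhibitors were called by limma and 0 had an unadjusted p under 0.05. Their median log2 fold change was 0.06, and 15 of the 17 lay above 0, beside 7349 of all 18193 genes. These 17 were bright, at mean levels of 10 to 10.26 per array, where all genes had 7.64 to 7.73. Among the brighter 50% of all genes the median log2 fold change was 0.06 too. Whether the list leaned upward beyond genes of like brightness was not tested. Casp9, the initiator caspase of the mitochondrial pathway, had a log2 fold change of 0.03 (95% interval -0.31 to 0.38), Casp8, that of the death receptors, one of 0.01 (interval -0.40 to 0.41), and Cycs, cytochrome c, one of 0.04. These 3 were named after their values were seen. The largest differences of the list were those of Fadd, the death receptor adaptor, at 0.80 (unadjusted p = 0.0511, limma), and of the mitochondrial protease gene Htra2, at 0.50 (unadjusted p = 0.0584, limma). In both genes the groups overlapped, and Fadd on wild type array 1, at 10.12, lay within the mutant range of 10.02 to 10.62. Of 9 further BCL2 relatives 0 were called, with a median of -0.02.

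Summed levels of immediate early genes and of cell type markers are given beside the members. A list of 12 immediate early genes was added after the data were seen. Of these, 5 were lower in mutant arrays at an unadjusted p under 0.05 (background 4.24%), and 0 were called. The summed intensity of the 12 was 30426 to 39249 in wild type and 21984 to 26139 in mutant arrays. Egr1 of this list stood at 12.93, 12.35 and 12.41 and at 11.74, 11.40 and 11.51. The part of these genes in the values of Btg2 and Plk2 was not tested.

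The mast cell and basophil list, of 8 measured genes, had a summed intensity of 2130 to 2736 in wild type and 5727 to 8883 in mutant arrays, and Gzmb was called. For 10 macrophage and dendritic cell genes the sum was 2536 to 3589 and 5532 to 12118, with 0 called. The brightest of them, H2-Ab1, H2-Aa and Cd74, had log2 fold changes of 0.83, 2.13 and 1.9. Of that list 8 genes lay above 0 and 2 below (Adgre1 at -0.22 and Vcam1 at -0.04). For 10 neutrophil and monocyte genes the sum was 28061 to 36194 and 13177 to 16376, with Camp called. Of these 10, the bright S100a9 and S100a8 had log2 fold changes of -2.87 and -3.13, and 3 lay above 0 (Csf1r at 1.39, Mpo at 0.16 and Prtn3 at 0.19). For 10 stem cell genes the sum was 22085 to 24931 and 16569 to 17951, with Tek called. Of these 10, 2 lay above 0 (Slamf1 at 0.25 and Gata2 at 0.02) and 8 below, among them Kit at -0.11 and Cd34 at -0.19. For 7 megakaryocyte genes it was 4501 to 5149 and 1965 to 2948, with 0 called. Of these 7, the brightest, Pf4, had a log2 fold change of -1.73. Vwf, Gp9 and Ppbp had -0.96, -0.71 and -0.43, and Gp6, Gp1bb and Itga2b had -0.12, -0.09 and 0.01. Summed T and NK cell genes, 9 measured, lay at 3005 to 3288 and 3395 to 3592, where Cd3d and Cd3e were dim at 3.93 to 5.94. The brightest of them were Nkg7 (10.65 to 11.22) and Prf1 (9.46 to 10.09), and the list had a median log2 fold change of 0, with 4 genes above and 5 below. B cell genes (7 measured) lay at 751 to 1033 and 552 to 1001, and erythroid genes (6 measured) at 3279 to 6425 and 4628 to 8437. The part of these cells in the values of Perp, Pmaip1 or the others was not tested, and in sorted bulk cells fewer cells of a type and less RNA per cell cannot be told apart.

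**Figure D5:**
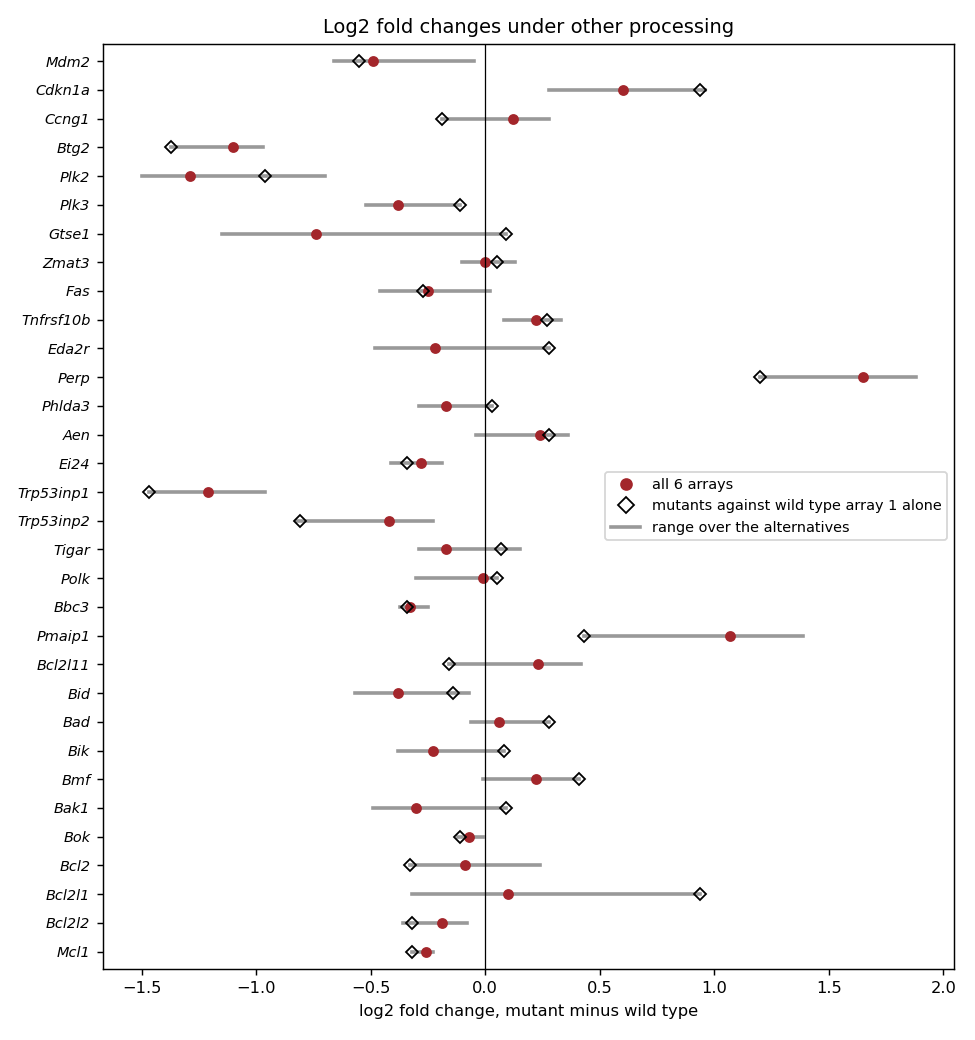
Log2 fold change of the 32 members over all 6 arrays (red), against wild type array 1 alone (open diamonds), and the range over all alternatives tried (grey bars). Perp, Pmaip1 and Cdkn1a stay above 0 and Btg2, Plk2, Trp53inp1, Mdm2, Bbc3 and Mcl1 below 0 throughout, while the bars of 16 members cross 0. The bars cover the brightest probe set and the mean of probe sets, and not each other probe set on its own. Those others gave -0.08 and 0.43 for Mdm2 and -0.03 for Cdkn1a.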

How the data were processed

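RNA of 6 sorted cell samples, 3 per group, was amplified and hybridised to 1-colour arrays. The authors deposited 1 intensity per probe set on a linear scale from 7.6 to 33795, and log2 was taken here. They used RMA, per the submitters' processing notes. Its settings were not given in the sources used here. Of 45101 probe sets, 34945 named a single gene (18193 genes), 932 several and 9160 none, and only the first kind was kept, with 64 controls also left out. Groups were fitted over all genes with limma 3.58.1 in R 4.3.3, mutant minus wild type, with two-sided p adjusted by Benjamini-Hochberg and called under 0.05. The number of arrays limits the precision. Members and lists were chosen with earlier results of these data known. Values per array are given for members with an unadjusted p under 0.05 and for genes of central role. Of other pathway lists, genes with an unadjusted p under 0.01 are named. Casp8, Casp9, Cycs, Fadd, Htra2 and the markers named were chosen after their values were seen. The scripts were tested on simulated data.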

Additional observations from a re-analysis of the deposited data

How the results depend on the processing

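No member was called under any of the alternatives tried, where the lowest adjusted p in limma was 0.0671 (Perp). The count of 20 called genes became 49 at an adjusted p under 0.10, 8 with array weights, 12 with each probe set tested separately, 6 after quantile normalization again and 40 with a trended and robust eBayes. The count was 0 without both arrays with Y-linked signal, where 1729 genes had an unadjusted p under 0.05, and 0 with that signal as a covariate, where 1149 had. Leaving out 1 array at a time gave 5 (wild type array 3) to 31 (wild type array 1), with 10 and 9 without mutant arrays 1 and 3. With the replicate block it was 10. In the labels, arrays of the same number share only that number. Their deviations from the group means correlated at 0.184, -0.026 and 0.063, beside -0.156 to 0.094 for arrays of unlike number. With 3 arrays per group these values cannot show whether a pairing exists. The count of 7 members at an unadjusted p under 0.05 stood beside 1828 of all genes. It became 4 of the 18 members left without the lower 50% of genes, beside 1235 of the 9096 genes left. When 1 array was left out it was 5 to 9. The 9 came without wild type array 1, beside 3938 genes. The 5 came without mutant array 2 or 3, beside 1184 and 1066 genes. The member counts therefore moved along with those of all genes. The exact p53 element was in 0 member promoters and in 3 with 1 base off allowed. Of 560 member values under alternatives, 33 moved by more than the pooled SD, 23 of them in the 2 fits that rest on wild type array 1 and 8 with the mean of probe sets. Many of the 560 could not move. The replicate block, the trended fit, the separate test of probe sets and the removal of dim genes leave a member's log2 fold change as it was. Direction was kept by 16 members throughout, and 9 turned without the arrays with Y-linked signal. These directions are those of the brightest probe set or of the mean of probe sets. Medians of all genes moved from -0.07 to -0.02 and 0.00 after quantile and cyclic loess normalization, and those of members from -0.18 to -0.10 and -0.08. The cause of these shifts was not tested.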

Other observations

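Wild type arrays varied more than mutant arrays in most genes, with an SD larger in wild type for 13599 of 18193 genes and larger in mutant arrays for 4249. Among the members the split was 19 and 11, with a median SD of 0.29 in wild type and 0.22 in mutant arrays, beside 0.29 and 0.16 for all genes.

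The forkhead site GTAAACA in member promoters was in those of Bbc3, Bcl2l11, Eda2r and Mdm2, whose log2 fold changes were -0.33, 0.23, -0.22 and -0.49. The E-box CACGTG was in promoters of Aen, Bbc3, Eda2r and Fas among the measured members, with log2 fold changes of 0.24, -0.33, -0.22 and -0.25. Since no member was called, neither set could hold a called gene, and this says nothing about the motifs.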
